A study of Mus musculus with 20 samples.

Results

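The 10 genes described here belong to a pair of mouse gene clusters: 6 Schlafen genes (Slfn1, Slfn2, Slfn4, Slfn5, Slfn8 and Slfn9) and 4 Phf11 genes (Phf11a, Phf11b, Phf11c and Phf11d). They were chosen by name, as the rows of the count table whose Ensembl identifiers carry these symbols, and they make up 10 of the 55487 genes listed. RNA sequencing covered 20 cultures of BV-2, an immortalised mouse microglial cell line, in 4 groups of 5 libraries: young untreated, aged untreated, young with LPS and aged with LPS. LPS, the bacterial lipopolysaccharide sensed by Toll-like receptor 4, was given at 100 ng/ml for 6 hours, and "aged" stands for cells of the same line after long-term cultivation. All groups therefore come from this single line and its genotype, and the labels name no transgene. Whether the genotype changed during long-term cultivation was not tested. How many long-term cultures stood behind the aged libraries is not given in the sources used here. Each replicate number is labelled as a batch that holds 1 library of every group. Nothing in the labels says that libraries of a group came from separately aged cultures, so the p-values measure the spread between these libraries, which may be technical in part.

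Schlafen genes encode cytosolic and nuclear proteins of myeloid and lymphoid cells, and many of them are switched on by type I interferon, the antiviral cytokine that macrophages and microglia release after Toll-like receptor signalling. The mouse family is divided into short members (Slfn1 and Slfn2), intermediate members (Slfn3 and Slfn4) and long members with a helicase-like C-terminal part (Slfn5, Slfn8, Slfn9 and Slfn14). Phf11 genes encode small PHD-finger proteins, the zinc-binding fold that reads chromatin, and the mouse carries several tandem copies where humans carry a single PHF11 gene. LPS reaches such genes along a relay in which interferon beta binds its receptor, JAK kinases switch on transcription factors, and these bind interferon-stimulated response elements together with IRF9.

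Both families sit in compact runs of genes. The 6 Schlafen genes span chr11:82951349-83190216 (GRCm38, 238.9 kb), in the order Slfn5, Slfn9, Slfn8, Slfn2, Slfn1 and Slfn4, with the pseudogene Slfn10-ps lying between Slfn8 and Slfn2 and the further family genes Slfn3 and Slfn14 lying beyond Slfn4. The 4 Phf11 genes span chr14:59276913-59395381 (118.5 kb), all on the reverse strand. Slfn5 was the only member with exon bases shared with another annotated gene: 559 bases overlap the antisense gene Slfn5os, which had 0 counts in all libraries.

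The stretches before the transcription starts are shown because part of the members share a regulatory core there, 1 of 3 cores searched. RefSeq promoter windows on GRCm38.p6, 300 bases long with the last 50 after the start, were found for 10 of 10 members and were searched on both strands for the core of the interferon-stimulated response element, GAAANNGAAA. The core was present in the windows of 5 of 10 members, against 3.99% of the 27025 genes with a window, and these 5 are not independent, since the windows of Slfn8 and Slfn9 and those of Phf11a and Phf11b are close copies. Each stretch below is printed 5′ to 3′ on the gene's own strand, with the core in capitals.
Slfn5, forward strand, chr11:82951927-82951976: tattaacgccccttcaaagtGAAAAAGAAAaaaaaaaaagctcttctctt
Slfn9, reverse strand, chr11:82991846-82991895: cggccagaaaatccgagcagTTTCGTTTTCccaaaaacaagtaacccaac
Slfn8, reverse strand, chr11:83020829-83020878: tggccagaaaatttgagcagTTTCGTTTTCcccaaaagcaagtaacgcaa
Phf11a, reverse strand, chr14:59297523-59297571: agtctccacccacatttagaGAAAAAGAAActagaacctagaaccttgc
Phf11b, reverse strand, chr14:59341351-59341400: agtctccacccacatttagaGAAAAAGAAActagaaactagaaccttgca
In Slfn8 and Slfn9 the core reads in the opposite direction to the gene, and its first base on the gene's strand lies 48 and 45 bases before the start. RefSeq gives Slfn8 a further start, from which the same core lies 136 bases away. In Phf11a, Phf11b and Slfn5 it reads with the gene and lies 29, 50 and 155 bases before the RefSeq start. The cluster spans above follow another annotation, GENCODE M21. There the model of Slfn5 begins at chr11:82951349 and that of Phf11c, on the reverse strand, at chr14:59395381. The RefSeq windows of Slfn5 and Phf11c thus lie wholly inside these models, and their results hold for the RefSeq starts only. The best local alignment of the windows of Phf11a and Phf11b was 98.2% identical over 279 bases, and that of Slfn8 and Slfn9 85.9% over 277 bases. Phf11a and Phf11d matched at 76.5% over 170 bases, and shorter stretches matched between other members.

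For comparison, the 150 bases before the starts of Slfn2 and Phf11d are given, since these were the members with the highest level per exon length in each cluster after LPS and their windows held no match to the core.
Slfn2, forward strand, chr11:83064962-83065111: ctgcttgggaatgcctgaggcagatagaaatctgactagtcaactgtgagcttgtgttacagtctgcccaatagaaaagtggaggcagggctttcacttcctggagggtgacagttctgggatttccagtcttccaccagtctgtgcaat
Phf11d, reverse strand, chr14:59365491-59365640: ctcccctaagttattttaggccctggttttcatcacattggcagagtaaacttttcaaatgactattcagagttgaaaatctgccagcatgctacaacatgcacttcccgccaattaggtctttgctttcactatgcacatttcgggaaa
Slfn1, Slfn4 and Phf11c had no match either. The core of the gamma-activated site, TTCNNNGAA, was found in 0 of 10 members against 9.55% of genes, and a kappa B core, GGGANTTTCC, in 0 of 10 against 0.47%. No match says only that these letters were not in these windows.

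Copies of a gene can exchange reads, so the shared sequence was measured. Of all 50-base windows along the annotated transcripts, 47.1% of those of Phf11b and 35.3% of those of Phf11a also occurred in transcripts of another gene, for the most part in each other. The shares were 10.9% for Phf11c, 8.09% for Phf11d, 14.6% for Slfn8, 11.5% for Slfn9, 10.8% for Slfn4, 4.27% for Slfn2, 3.37% for Slfn5 and 0.61% for Slfn1. At 100 bases the highest share was 13.8%, in Phf11b. Despite this, no pair of members had near-identical counts: over 78 pairs of the 10 members and the rows of Slfn3, Slfn14 and Slfn10-ps, none had counts within 10% of each other in more than 9 of 20 libraries, and the pair at 9 was Slfn1 with Slfn14, both mostly at 0. How the authors' counting treated reads that fit several genes is not given in the sources used here, so the split of counts between Phf11a and Phf11b is uncertain, and summed values are given below.

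Libraries held 11371508 to 16829292 counts, and mitochondrial genes took 0.517% to 1.30% of them. Levels are given in CPM, the counts of a gene scaled to a common library total with the trimmed mean of M-values, and a count of 3 corresponds to 0.165 to 0.296 CPM depending on the library. Of 15 microglial and macrophage markers 14 passed the filter on low counts, with Csf1r, Cd68 and Adgre1 high, Sall1 at 0 and P2ry12 at 0.571 CPM on average; 0 of 18 markers of other cell types passed it, with a summed level of 0.197 to 0.964 CPM. The filter kept 12799 genes, and 9 of the 10 members were among them. Slfn1 was left out because only 4 libraries, all with LPS, reached the cutoff of 0.696 CPM where 5 are needed. Slfn4 and Phf11a reached it in 10 LPS libraries and 0 untreated ones, and Slfn5 in 10 LPS libraries and 1 untreated one, so these 3 passed through the groups in which they were high.

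A pair of libraries stood apart in interferon genes and is followed through the results. Replicate 1 of the young untreated group had a summed level of 220.2 CPM over a list of 20 interferon-induced genes, against 116.0 to 146.5 CPM in the other 4 libraries of its group. Replicate 3 of the aged LPS group had 3534 CPM, against 1501 to 2337 CPM in the other 4. The members followed in part. The young library was the highest of its group in 3 of the 10 members (Slfn2, Slfn5 and Slfn8) and the lowest in 3 (Slfn4, Slfn9 and Phf11d), while the aged library was the highest of its group in 8, all but Slfn2 and Slfn5. Where leaving out either library changed the call of a member, or moved a called fold by over 1.5 times, both values are given.

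LPS raised the tested members at both ages. In the fit across all 12799 genes (edgeR's quasi-likelihood test, Benjamini-Hochberg adjustment, called below 0.05) 9 of 9 members were higher with LPS in young cells, where 31.2% of all genes tested were called higher, and 9 of 9 were higher in aged cells, where 27.5% were. The median log2 fold change of the 9 was 4.67 in young cells and 4.42 in aged cells, against -0.01 and 0.00 over all genes tested. Sorted by the size of the rise, the 9 members took ranks 53 to 619 in young cells and 32 to 739 in aged cells. In all 9, every LPS library lay above every untreated library of the same age, a pattern held by 23.9% of all genes tested in young and 21% in aged cells. Slfn4, Slfn5 and Phf11a had passed the filter through their LPS libraries, which favoured a rise, so their part in these counts, medians and ranks carries little weight. Slfn2, Slfn8, Slfn9, Phf11b, Phf11c and Phf11d reached the cutoff in 7 or more untreated libraries, and all were called higher at both ages. In bulk RNA, more responding cells and more RNA per cell cannot be told apart.

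**Figure D1:**
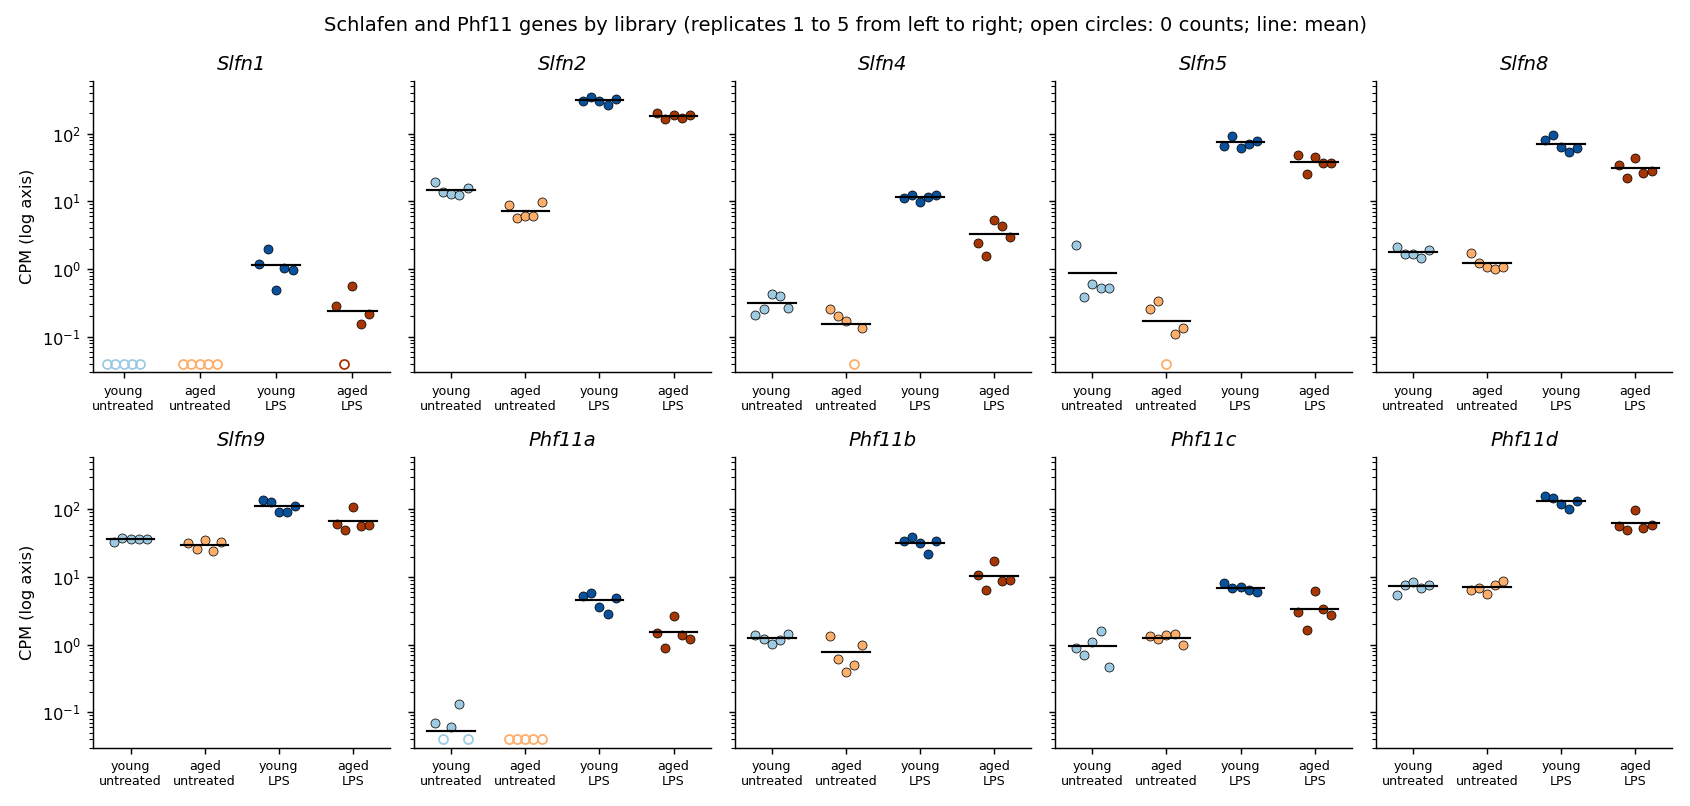
Level of each of the 10 genes in CPM (log axis) in the 20 libraries, 5 points a group, with the group mean as a line and libraries at 0 counts as open circles. All 9 members other than Slfn1 were higher in every LPS library than in every untreated library of the same age, and Slfn1 had 0 counts in all 10 untreated libraries.

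Slfn2, a short Schlafen known for keeping T cells and monocytes quiescent, was the most abundant member after LPS. Slfn2 was 19.5, 13.5, 12.7, 12.2 and 15.5 CPM in replicates 1 to 5 of the young untreated group and 8.98, 5.71, 6.1, 5.98 and 9.78 CPM in the aged untreated group. With LPS it was 308, 354, 305, 264 and 329.9 CPM in young cells and 200.1, 167, 191, 173 and 189 CPM in aged cells. The 4 groups did not overlap between treatments or between ages: every aged library lay below every young one, in both conditions. The log2 fold change with LPS was 4.41 ± 0.13 (SE, adjusted p = 1.11e-17) in young cells, a rise of 21.3-fold, and 4.66 ± 0.14 (SE, adjusted p = 1.77e-17) in aged cells, a rise of 25.3-fold.

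Slfn1, the founding short member and a gene linked to growth arrest in thymocytes, was barely detected. It had 0 counts in all 10 untreated libraries, which allows up to 0.165 to 0.207 CPM by library. With LPS, Slfn1 was 1.18, 1.99, 0.482, 1.04 and 0.957 CPM in young cells and 0.281, 0, 0.551, 0.155 and 0.217 CPM in aged cells. It was thus seen in 5 of 5 young and 4 of 5 aged LPS libraries, with 70 and 17 counts in all. Against a floor of 3 counts over the untreated group, the level was at least 28.2-fold higher with LPS in young cells and at least 6.80-fold higher in aged cells. Slfn1 was not part of the main test; in a fit without the filter, the adjusted p of edgeR's test was 2.58e-08 in young and 0.000945 in aged cells.

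Slfn4, the intermediate member known from activated macrophages and other myeloid cells, went from a trace to a low level. Slfn4 was 0.207, 0.255, 0.422, 0.395 and 0.266 CPM in young untreated and 0.258, 0.202, 0.171, 0 and 0.133 CPM in aged untreated libraries, 3 to 7 and 0 to 4 counts a library. With LPS it was 11.3, 12.6, 9.71, 11.6 and 12.6 CPM in young cells and 2.46, 1.56, 5.31, 4.33 and 2.96 CPM in aged cells. The young LPS libraries lay close together and all above the aged ones, among which replicates 3 and 4 were highest. LPS raised Slfn4 by a log2 fold change of 5.17 ± 0.30 (SE, adjusted p = 8.67e-13) in young and 4.42 ± 0.39 (SE, adjusted p = 2e-09) in aged cells.

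Slfn5, a long member that is nuclear and regulated by interferon, had the largest rise of the tested Schlafen genes at both ages. Slfn5 was 2.27, 0.383, 0.603, 0.527 and 0.532 CPM in young untreated libraries and 0.258, 0.336, 0, 0.11 and 0.133 CPM in aged untreated libraries. Replicate 1 of the young group, with 33 counts, stood far above the other 9 untreated libraries. After LPS, Slfn5 was 66.4, 93.9, 61.0, 70.5 and 79.3 CPM in young cells and 48.1, 25.6, 45.0, 36.8 and 36.7 CPM in aged cells, so that no LPS library of either age came near an untreated one and the young and aged LPS libraries did not overlap. The log2 fold change was 6.44 ± 0.27 (SE, adjusted p = 3.42e-15) in young cells and 7.83 ± 0.36 (SE, adjusted p = 2.72e-14) in aged cells, 86.8-fold and 228-fold. Without replicate 1 of the young untreated group the young rise was 142-fold, at a log2 fold change of 7.15 (adjusted p = 8.70e-16). The aged fold rests on 13 untreated counts in all.

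Slfn8 and Slfn9 are long members that lie side by side on the reverse strand and share a near-alike promoter, yet they differed in level before LPS and in the size of the rise. Slfn8 was 2.14, 1.66, 1.69, 1.45 and 1.93 CPM in young untreated and 1.74, 1.21, 1.08, 0.988 and 1.06 CPM in aged untreated libraries. It reached 82.0, 95.2, 63.2, 53.4 and 60.7 CPM in young cells with LPS and 34.3, 22.3, 44.0, 26.4 and 28.5 CPM in aged cells with LPS. Every aged LPS library lay below every young one, and replicate 3 was the highest of the aged libraries. The log2 fold change of Slfn8 was 5.32 ± 0.21 (SE, adjusted p = 1.4e-15) in young and 4.68 ± 0.23 (SE, adjusted p = 7.84e-14) in aged cells.

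Slfn9 was 32.7, 37.9, 36.7, 36.6 and 36.6 CPM in young untreated and 31.6, 26.0, 34.8, 24.2 and 32.7 CPM in aged untreated libraries, the highest untreated level in CPM of the 10 genes. It was 137, 129, 90.9, 92.4 and 112 CPM in young cells with LPS and 61.8, 48.9, 107, 55.9 and 58.6 CPM in aged cells with LPS. Replicate 3 of the aged LPS group stood above the other 4 aged libraries and within the young range, so the ages overlapped here. Slfn9 had the smallest rise of the 9, with a log2 fold change of 1.64 ± 0.16 (SE, adjusted p = 9.93e-09) in young cells and 1.16 ± 0.17 (SE, adjusted p = 3.65e-06) in aged cells, which is 3.1-fold and 2.23-fold. With the counts of Slfn8 and Slfn9 summed into a single row, the log2 fold change was 2.27 ± 0.16 (SE, adjusted p = 3.29e-11) in young and 1.65 ± 0.16 (SE, adjusted p = 1.29e-08) in aged cells. Both genes shared 50-base windows most with Slfn10-ps, 10.1% of those of Slfn8 and 8.1% of those of Slfn9. The sum leaves Slfn10-ps out, so it does not cover reads exchanged with that row.

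Among the Phf11 genes Phf11d held the most counts. Phf11d was 5.51, 7.66, 8.5, 6.98 and 7.65 CPM in young untreated and 6.53, 6.79, 5.59, 7.52 and 8.65 CPM in aged untreated libraries, which overlapped. With LPS it was 157, 149, 121, 99.8 and 133 CPM in young cells and 56.5, 49.4, 98.5, 53.4 and 58.7 CPM in aged cells. Replicate 3 of the aged LPS group, at 98.5 CPM, stood apart from its group and just below the lowest young library. The log2 fold change was 4.18 ± 0.18 (SE, adjusted p = 5.96e-15) in young cells and 3.18 ± 0.18 (SE, adjusted p = 1.18e-12) in aged cells, 18.1-fold and 9.05-fold.

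Phf11b had fewer counts than Phf11d and a steeper rise. Phf11b was 1.38, 1.21, 1.02, 1.19 and 1.46 CPM in young untreated and 1.36, 0.605, 0.399, 0.494 and 0.998 CPM in aged untreated libraries. With LPS it was 33.8, 38.5, 31.6, 22.1 and 33.8 CPM in young cells and 10.7, 6.34, 17.0, 8.66 and 9.03 CPM in aged cells. The aged LPS libraries all lay below the young ones, replicate 3 again the highest of them. For Phf11b the log2 fold change was 4.67 ± 0.25 (SE, adjusted p = 2.41e-13) in young and 3.77 ± 0.29 (SE, adjusted p = 2.01e-10) in aged cells.

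Phf11a, whose promoter window is a close copy of that of Phf11b, was close to absent without LPS. Phf11a had 4 counts over the 5 young untreated libraries and 0 counts over the 5 aged untreated libraries. With LPS it was 5.33, 5.88, 3.65, 2.83 and 4.86 CPM in young cells and 1.47, 0.906, 2.62, 1.39 and 1.23 CPM in aged cells, and the ages did not overlap. The ratio of LPS to untreated in young cells was 85.2, with an exact 95% interval of 32.9 to 314.7 that covers counting error only. In aged cells the level was at least 42.0-fold higher with LPS, against the floor of 3 counts over the untreated group.

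Phf11c rose least of the Phf11 genes. Phf11c was 0.896, 0.702, 1.08, 1.58 and 0.466 CPM in young untreated and 1.36, 1.21, 1.37, 1.43 and 0.998 CPM in aged untreated libraries. With LPS it was 8.19, 6.96, 7.09, 6.48 and 5.96 CPM in young cells and 3.02, 1.65, 6.13, 3.4 and 2.75 CPM in aged cells. Young LPS libraries lay between 5.96 and 8.19 CPM, and of the aged ones only replicate 3 reached that range. The log2 fold change was 2.86 ± 0.27 (SE, adjusted p = 4.47e-09) in young cells and 1.41 ± 0.27 (SE, adjusted p = 0.000148) in aged cells, 7.24-fold and 2.67-fold. With the 4 Phf11 genes summed into a single row, which does not see reads exchanged between copies, the log2 fold change with LPS was 4.20 ± 0.18 (SE, adjusted p = 4.16e-15) in young and 3.12 ± 0.18 (SE, adjusted p = 1.11e-12) in aged cells.

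Within the labelled batches, each LPS library was set against the untreated library of the same age and batch. All 9 tested members were higher in 5 of 5 batches at both ages. This follows from the lack of overlap between treatments given above. The share of all genes tested with this pattern is not given here, so it is a description only. The smallest within-batch differences on the log2 CPM scale, with 2 counts added, were those of Phf11c in aged cells, 0.41 to 2.06, and of Slfn9 in aged cells, 0.84 to 1.62. The largest was that of Slfn5 in aged cells, 5.76 to 8.35.

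**Figure D2:**
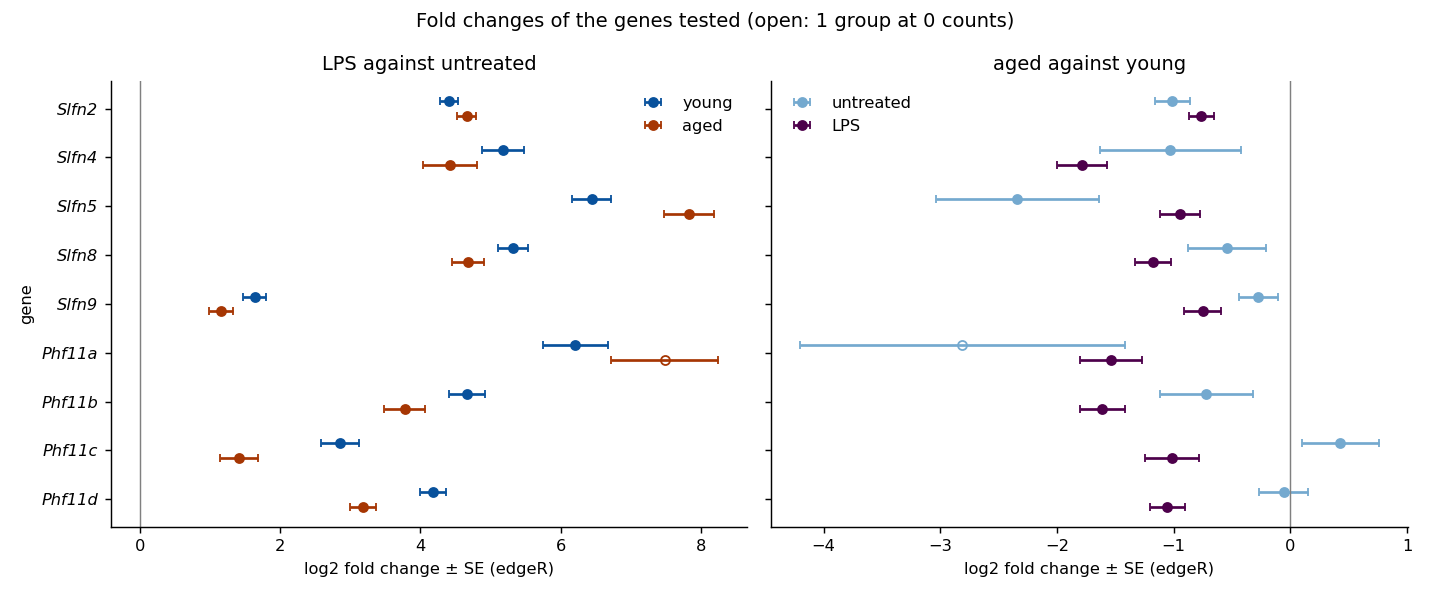
Log2 fold changes with their standard errors for the 9 tested genes, LPS against untreated in young and aged cells on the left and aged against young in untreated and LPS cells on the right; open symbols mark comparisons with a group at 0 counts. All left-hand values lie above 0, and all LPS values on the right lie below 0, between -0.75 and -1.78.

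Levels per exon length, in CPM per kilobase of exon, order the members within a group. The whole exon length was used, so the places of Phf11a and Phf11b depend on how reads that fit several genes were counted. In young untreated cells Slfn2 at 8.84 ± 1.78 (SD, n = 5) and Slfn9 at 6.05 ± 0.336 led, followed by Phf11d at 1.61 ± 0.248 and Phf11b at 1.06 ± 0.145, whose libraries overlapped. In aged untreated cells Slfn9 at 5.01 ± 0.761 and Slfn2 at 4.39 ± 1.15 overlapped, so their order is not settled there. After LPS Slfn2 stood alone at 187.7 ± 19.9 in young and 110.6 ± 8.25 in aged cells. Below it, Phf11d, Phf11b, Slfn9, Slfn8 and Slfn5 formed a run in which each overlapped the next, from 29.4 ± 5.08 to 11.7 ± 2.03 in young cells. In aged cells the same 5 genes ran from 14.1 ± 4.44 for Phf11d to 6.08 ± 1.38 for Slfn5. Phf11a, Slfn4 and Phf11c lay lower, between 2.01 and 3.33 in young and 0.839 and 1.13 in aged cells, and Slfn1 was last at 0.607 ± 0.294 and 0.129 ± 0.109.

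The makeup of the Schlafen total changed with LPS. Summed per exon length, the 6 genes went from 15.5 ± 1.64 (SD, n = 5) to 239.1 ± 27.5 in young and from 9.76 ± 1.71 to 136.3 ± 14.1 in aged cells. Slfn2 made up 56.5% ± 5.06 of the sum in young untreated cells and 78.6% ± 1.95 with LPS, and 44.6% ± 5.11 and 81.3% ± 3.49 in aged cells. Slfn9 went the other way, from 39.4% ± 5.57 to 7.86% ± 1.01 in young and from 51.6% ± 5.12 to 8.06% ± 2.07 in aged cells. Neither gene's shares overlapped between treatments at either age. Slfn8 and Slfn5 together with Slfn4 and Slfn1 took the rest, Slfn8 7.19% ± 1.10 and Slfn5 4.91% ± 0.581 in young LPS cells.

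In the Phf11 total the split between Phf11b and Phf11d differed with age after LPS. Phf11b made up 43.7% ± 2.23 (SD, n = 5) of the sum in young LPS cells and 34.7% ± 2.84 in aged LPS cells, with ranges of 40.8% to 45.7% and 30.7% to 38.4% that did not overlap. Phf11d made up 47.7% ± 1.95 and 57.0% ± 3.71, also without overlap. Phf11a took 5.32% ± 0.643 and 4.44% ± 0.468, and Phf11c 3.32% ± 0.596 and 3.81% ± 0.764. These shares are a description with no test. The levels of Phf11a and Phf11b, also against Phf11d, depend on how shared reads were counted.

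**Figure D3:**
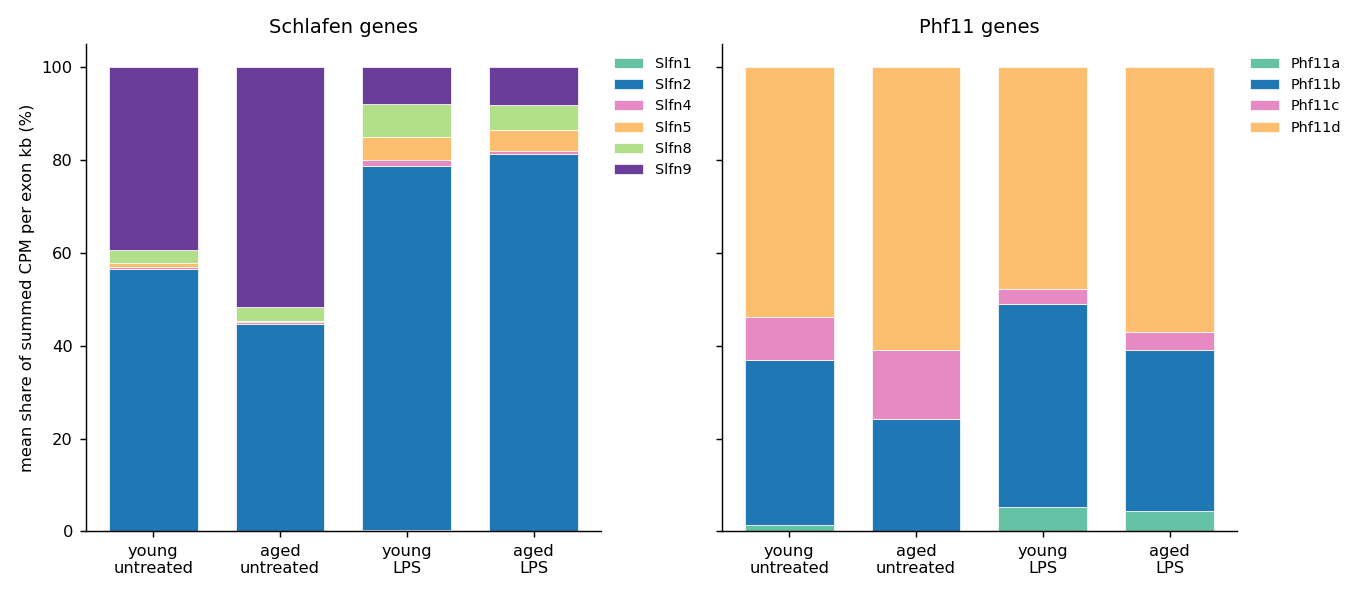
Mean share of each gene in the summed CPM per exon kilobase of its cluster, in percent, in the 4 groups (5 libraries each). Slfn2 widens from 56.5% to 78.6% in young and from 44.6% to 81.3% in aged cells with LPS while Slfn9 narrows, and Phf11d outweighs Phf11b more in aged than in young LPS cells.

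After LPS, aged cells held less of every tested member than young cells. Of the 9, 9 were called lower in aged LPS cells, where 15% of all genes tested were called lower, and the median log2 fold change was -1.06 against 0.01 over all genes tested. In 7 of the 9 every aged library lay below every young one, a pattern seen in 8.16% of all genes tested. The exceptions were Slfn9 and Phf11c, in both of which replicate 3 of the aged group reached into the young range.

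Slfn4 had the largest fall, from 11.6 ± 1.18 CPM (SD, n = 5) in young to 3.32 ± 1.49 CPM in aged LPS cells, a log2 fold change of -1.78 ± 0.21 (SE, adjusted p = 2.25e-06). Phf11b followed at -1.61 ± 0.19 (SE, adjusted p = 2.48e-06) and Phf11a at -1.53 ± 0.27 (SE, adjusted p = 0.000259), 3.06-fold and 2.9-fold lower. The fold change of Slfn8 was -1.18 ± 0.15 (SE, adjusted p = 5.7e-06), from 70.9 ± 17.2 to 31.1 ± 8.39 CPM.

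Phf11d went from 132 ± 22.9 to 63.3 ± 20.0 CPM, a log2 fold change of -1.06 ± 0.15 (SE, adjusted p = 1.57e-05), and Phf11c was 2.02-fold lower at -1.01 ± 0.23 (SE, adjusted p = 0.00202). Slfn5 had a log2 fold change of -0.95 ± 0.17 (SE, adjusted p = 0.000257), which is 1.93-fold lower. The smallest falls were those of the members that were most abundant without LPS: Slfn2 at -0.76 ± 0.11 (SE, adjusted p = 1.65e-05) and Slfn9 at -0.75 ± 0.16 (SE, adjusted p = 0.001). Slfn2 nevertheless had the largest fall in CPM, from 312 ± 33.1 to 184 ± 13.7 CPM, which is a level relative to the library and not an amount of RNA. Slfn1 had 70 counts in young and 17 in aged LPS libraries, which overlapped, and in the fit without the filter its adjusted p was 0.00156.

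Within batches the aged LPS library was below the young LPS library in 5 of 5 batches for 8 of the 9 tested members. Slfn9 was lower in 4 of 5, the exception being batch 3, where the difference was 0.23 on the log2 CPM scale. The share of all genes tested with such a pattern is not given here, so these counts are a description only. Without replicate 3 of the aged LPS group all 9 were still called lower, and the log2 fold changes were larger, from -0.78 in Slfn2 to -2.02 in Slfn4. In that library the interferon-induced genes were high as well; their part in the members' levels was not tested. For the summed Phf11 genes the log2 fold change of aged against young LPS cells was -1.16 ± 0.15 (SE, adjusted p = 5.83e-06), and for Slfn8 and Slfn9 summed it was -0.91 ± 0.15 (SE, adjusted p = 0.000119).

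Without LPS, 2 of the 9 members were called lower in aged cells, Slfn2 and Slfn5, where 7.81% of all genes tested were called lower. Slfn2 fell from 14.7 ± 2.96 CPM (SD, n = 5) to 7.31 ± 1.91 CPM, with a log2 fold change of -1.01 ± 0.15 (SE, adjusted p = 0.000104), and was lower in 5 of 5 batches. Its call held under each of the alternatives run. Slfn5 had a log2 fold change of -2.34 ± 0.70 (SE, adjusted p = 0.0323) on 65 counts in young and 13 in aged untreated libraries. Without replicate 1 of the young untreated group, the library with 33 of these counts, the fold change was -1.62 and the adjusted p was 0.139. Leaving out replicate 1, 3, 4 or 5 of all groups also ended the call, with adjusted p between 0.0773 and 0.129, so it depends on the libraries included. Slfn5 was lower in the aged library in 5 of 5 batches, by -2.6 to -0.14 on the log2 CPM scale. DESeq2 on all libraries gave an adjusted p of 0.000418.

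For the other 7 members the untreated comparison did not pass the threshold. Their log2 fold changes were -1.03 ± 0.61 (SE, adjusted p = 0.301) for Slfn4, -0.54 ± 0.33 (SE, adjusted p = 0.321) for Slfn8 and -0.27 ± 0.17 (SE, adjusted p = 0.327) for Slfn9. For Phf11b the value was -0.72 ± 0.40 (SE, adjusted p = 0.262), for Phf11c 0.43 ± 0.33 (SE, adjusted p = 0.451) and for Phf11d -0.06 ± 0.21 (SE, adjusted p = 0.905). Phf11a and Slfn1 were at or near 0 counts in both groups, too few for a fold. Within batches Slfn8, Slfn9 and Phf11b were lower in the aged library in 5 of 5 batches. The differences on the log2 CPM scale were -0.78 to -0.27, -0.60 to -0.05 and -1.11 to -0.02. None of these genes was called when edgeR's test also took account of the batches, at adjusted p of 0.2744, 0.2562 and 0.2355. The share of all genes tested that were lower in 5 of 5 batches is not given here, so the pattern is a description only.

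Whether the LPS response itself differed with age was tested as the difference of the log2 fold changes, aged minus young. It was called for 2 of the 9 members, both lower in aged cells, where 2.27% of all genes tested were called lower. In Phf11c the difference was -1.44 ± 0.40 (SE, adjusted p = 0.0328) and in Phf11d -1.0 ± 0.26 (SE, adjusted p = 0.0215), which is a response 2.72-fold and 2.00-fold smaller in aged cells. Phf11c responded less in the aged library of 5 of 5 batches and Phf11d of 4 of 5. Both calls were lost when replicate 1, 2, 4 or 5 was left out of all groups, with adjusted p from 0.0536 to 0.191, and Phf11c lost its call without replicate 1 of the young untreated group alone (adjusted p = 0.0521). Without replicate 3 of the aged LPS group the differences were -1.77 (adjusted p = 0.00145) and -1.22 (adjusted p = 0.000293).

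For the other 7 members the difference did not pass the threshold, and the estimates spread to both sides of 0. They were -0.75 ± 0.74 (SE, adjusted p = 0.653) in Slfn4, -0.64 ± 0.37 (SE, adjusted p = 0.378) in Slfn8 and -0.48 ± 0.23 (SE, adjusted p = 0.259) in Slfn9. Phf11b had -0.89 ± 0.46 (SE, adjusted p = 0.29). Slfn2 and Slfn5 had estimates above 0, 0.25 ± 0.18 (SE, adjusted p = 0.517) and 1.39 ± 0.74 (SE, adjusted p = 0.316), and these were also the members called lower in untreated aged cells. Without replicate 1 of the young untreated group the Slfn5 estimate was 0.68 (adjusted p = 0.671). For Phf11a no difference is given, since its aged untreated group was at 0 counts and the fitted value depends on the prior count. Slfn9 passed the threshold without replicate 3 of the aged LPS group, at -0.72 with an adjusted p of 0.00669. With the 4 Phf11 genes summed the difference was -1.08 ± 0.25 (SE, adjusted p = 0.0103), and with Slfn8 and Slfn9 summed it was -0.62 ± 0.23 (SE, adjusted p = 0.113).

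The remaining Schlafen rows behaved unevenly. Slfn3, the intermediate gene next to Slfn4, rose from 18.7 ± 2.27 to 30.8 ± 4.13 CPM (SD, n = 5) in young cells, a log2 fold change of 0.71 ± 0.11 (SE, adjusted p = 3.74e-06), and by 0.30 ± 0.11 (SE, adjusted p = 0.0212) in aged cells. The pseudogene Slfn10-ps, whose sequence is partly shared with Slfn8 and Slfn9, rose by 2.67 ± 0.12 (SE, adjusted p = 1.58e-14) in young and 2.10 ± 0.12 (SE, adjusted p = 1.19e-12) in aged cells. Between ages with LPS, Slfn3 had a log2 fold change of -0.25 ± 0.11 (SE, adjusted p = 0.0794), which did not pass the threshold, and Slfn10-ps -0.29 ± 0.11 (SE, adjusted p = 0.0444), which did. Without replicate 3 of the aged LPS group the aged rise of Slfn3 was 0.20 (adjusted p = 0.0945), no longer called, and its difference between ages with LPS was -0.35 (adjusted p = 0.0103), now called. The aged rise of Slfn3 was also not called with library sizes alone (0.14, adjusted p = 0.278) or without replicate 3 or 4 of all groups. The call of Slfn10-ps between ages was lost with library sizes alone (adjusted p = 0.128), without the filter (adjusted p = 0.0545) and without replicate 2, 4 or 5 of all groups (adjusted p from 0.105 to 0.254). Slfn14 had 4 counts in all, in 2 young untreated libraries.

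The tested genes around the clusters had smaller median changes with LPS than the members. Family genes such as Slfn3, which starts just past Slfn4, and 2 other tested genes inside the Schlafen span were not counted as neighbours. Gm11427, which shares some transcript sequence with Slfn3 and Slfn4, was counted as a neighbour. Of the 10 other tested genes nearest to the Schlafen cluster, 5 on each side and 33.4 to 170.3 kb away, 6 were called higher and 2 lower with LPS in young cells and 6 higher and 3 lower in aged cells, with the lowest log2 fold change, -1.10, in AA465934. Of the 10 around the Phf11 cluster, 4 lay within 200 kb and 6 lay 789 to 1448 kb away. In this group 4 were higher and 2 lower in young and 3 higher and 1 lower in aged cells, which became 1 higher and 5 lower and 1 higher and 3 lower with library sizes alone. The largest change there was that of Setdb2, a histone methyltransferase gene whose gene model lies 6.63 kb from that of Phf11c: 1.45 in young cells (adjusted p = 3.27e-09) and 0.95 in aged cells (adjusted p = 3.32e-06). The median log2 fold change in young cells was 0.39 for the Schlafen neighbours and 0.11 for the Phf11 neighbours (-0.11 with library sizes alone), against 5.17 and 4.42 for the tested members of the clusters. In aged against young LPS cells 3 Schlafen neighbours were lower and 0 higher, and 2 Phf11 neighbours were lower, Setdb2 among them at -0.43 (adjusted p = 0.0159), and 1 higher. Among all 12799 genes tested, 3988 were called higher and 4282 lower with LPS in young cells, and 3523 and 3445 in aged cells. Between ages with LPS, 1923 of them were called lower and 1794 higher.

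**Figure D4:**
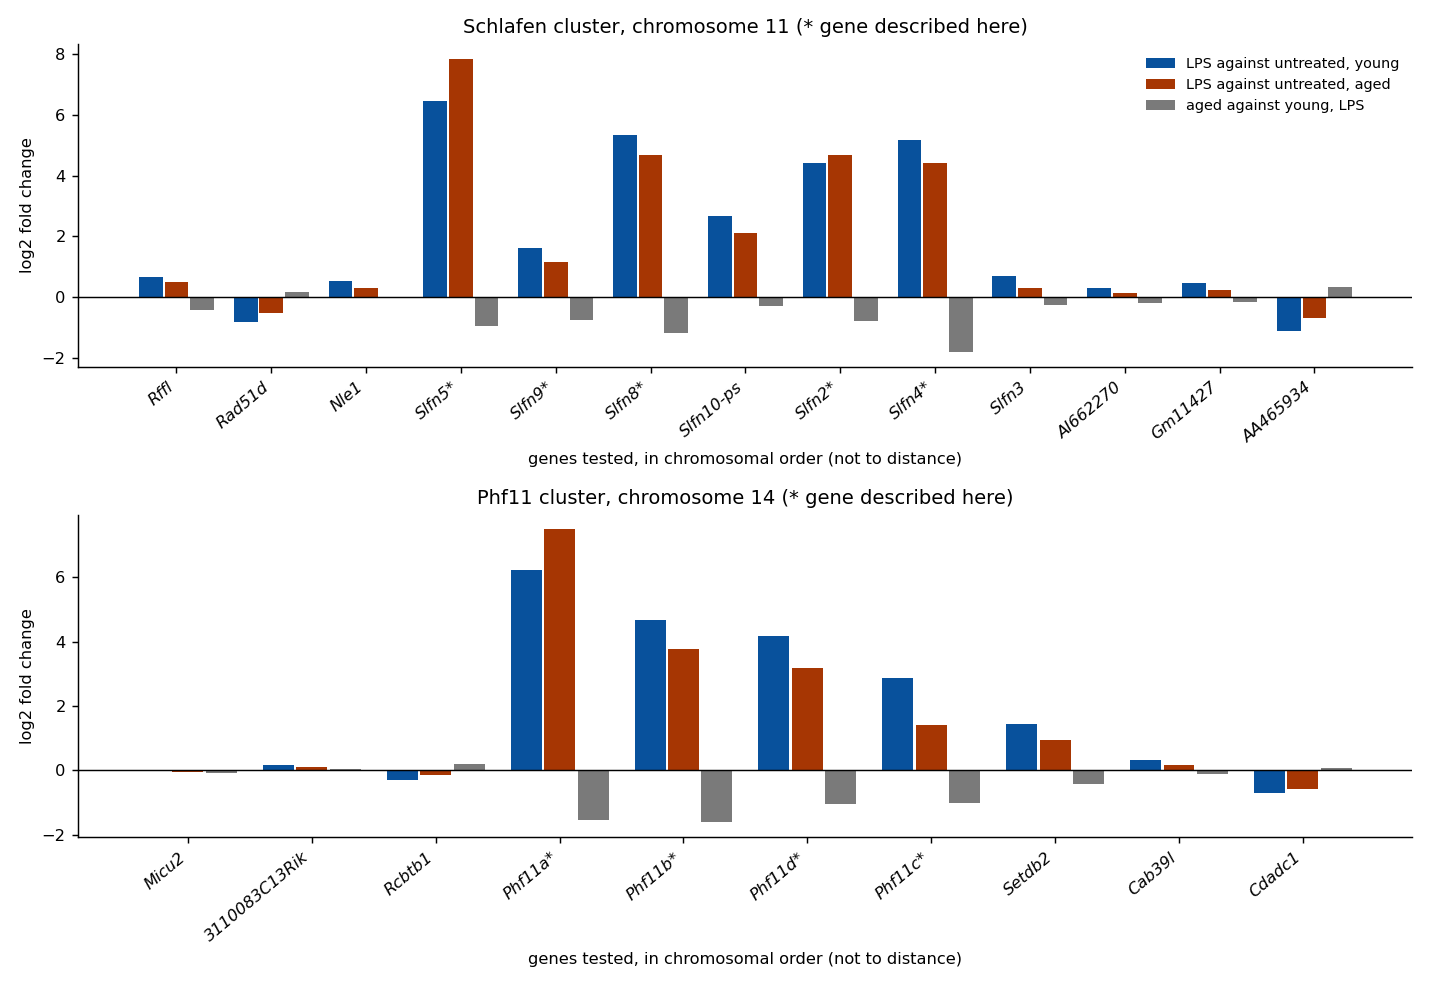
Log2 fold changes of the tested Schlafen and Phf11 family genes and of the 3 nearest other tested genes on each side of each cluster, in chromosomal order and not to distance, with bars for LPS in young cells, LPS in aged cells and aged against young cells with LPS; asterisks mark the genes described here, and the aged bar of Phf11a is a fitted value against a group at 0 counts. The genes drawn on either side of the families lie between -1.10 and 1.45.

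The interferon pathway that lies upstream of such genes was followed with 15 genes, of which 13 passed the filter. Ifnb1, the interferon beta gene, had 0 counts untreated and averaged 0.331 CPM in young and 0.143 CPM in aged LPS cells, and Ifna4 had none. With LPS 11 of the 13 rose and 1 fell in young cells, and 10 rose and 1 fell in aged cells. Irf7, the master factor of the interferon loop, rose by 6.39 (adjusted p = 1.86e-14) and 7.13 (adjusted p = 1.33e-13) on the log2 scale. In aged against young LPS cells 11 of the 13 were lower, among them Irf7 at -1.15 (adjusted p = 0.00023), Stat2 at -1.34 (adjusted p = 1.68e-05) and Irf1 at -1.11 (adjusted p = 2.00e-05). Without LPS 5 of the 13 were lower in aged cells, Irf7 among them at -1.89 (adjusted p = 0.0308). That count was 3 without replicate 1 of the young untreated group and ran from 2 to 6 over the alternatives run.

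A list of 20 interferon-induced genes, all of them tested, was called in the same directions as the members with LPS at both ages and between ages with LPS. With LPS 20 of 20 rose at both ages, with median log2 fold changes of 6.85 in young and 8.09 in aged cells. The list's median rise was thus larger in aged cells, where that of the members was smaller, and the median difference of the LPS responses was 0.84 for the list and -0.64 for the 9 tested members. These medians hold fitted values that depend on the prior count, since 6 of the 20 genes had at most 3 counts over the aged untreated group, and the list's median difference was 0.35 without replicate 1 of the young untreated group and -0.07 without replicate 3 of all groups. In aged against young LPS cells 20 of 20 were lower, with a median of -1.58; Rsad2, the antiviral enzyme viperin, went from 2227 to 718.5 CPM (log2 fold change -1.63, adjusted p = 0.00317). In untreated cells 8 of 20 were lower in aged cells. That count was 5 without replicate 1 of the young untreated group and 13 without replicate 3 of the aged LPS group, and it ran from 4 to 14 over the alternatives run. The difference of the LPS responses was called for 2 of 20, Ifit2 at -1.30 (adjusted p = 0.0246) and Oasl1 at -0.74 (adjusted p = 0.0170). The list was put together with earlier results of these data known, and its counts stand here as levels of neighbouring biology.

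By library, the summed level of the 10 members ran from 61.1 to 64.6 CPM in young untreated and from 40.7 to 54.5 CPM in aged untreated cells, and from 624.4 to 886.9 CPM in young and from 323.5 to 517.1 CPM in aged LPS cells. No pair of groups overlapped in this sum, but without LPS that held for the Schlafen genes alone. Their untreated sums were 51.24 to 56.78 CPM in young and 31.27 to 43.83 CPM in aged cells. The untreated sums of the Phf11 genes overlapped between ages, at 7.856 to 10.67 CPM in young and 7.355 to 10.64 CPM in aged cells. In the sum of the 10 members replicate 3 was again the highest aged LPS library, at 517.1 CPM.

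**Figure D5:**
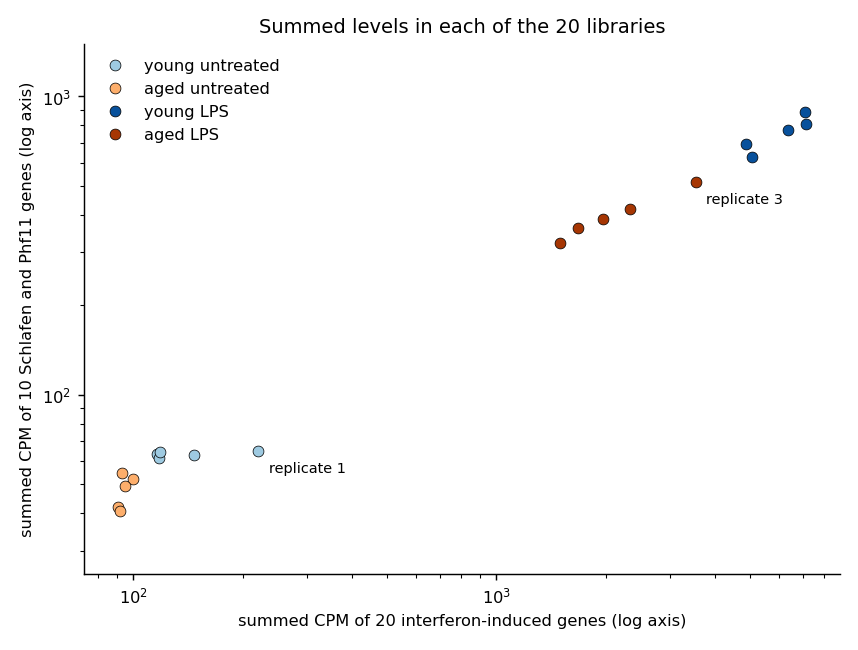
Summed CPM of the 10 Schlafen and Phf11 genes against the summed CPM of 20 interferon-induced genes, 1 point for each of the 20 libraries, both axes logarithmic. Untreated libraries sit at the lower left and LPS libraries at the upper right, with aged LPS replicate 3 at 3534 and 517.1 CPM as the aged library nearest to the young ones; the points share libraries and treatment, so the arrangement is a description.

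The genes closest to each member over the 20 libraries were found as those with the smallest root mean square difference of log2 CPM after each gene was centred on its own mean. For Slfn2 this was Gpr84, at 0.297 log2 units, followed by Lta and Ccl3, while the member's own SD over the libraries was 2.38. For Slfn5 it was Irf7 at 0.383, for Slfn8 Zbp1 at 0.289 and for Slfn9 Psme2 at 0.160. Igtp was closest both to Slfn4, at 0.428, and to Phf11b, at 0.294. For Phf11d it was Oas3 at 0.275, for Phf11a Gm43302 at 0.255 and for Phf11c Znfx1 at 0.399, the latter against an SD of 1.19. All 20 libraries share the step between untreated and LPS cultures, so a small difference over them is a description only.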

How the data were processed

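The authors isolated total RNA, made stranded mRNA libraries, aligned the reads with STAR 2.6.1d to GRCm38 and counted them per gene with featureCounts 1.5.1; the table they deposited holds raw counts per Ensembl gene. The annotation release and the settings for strand and for reads that fit several genes are not given in the sources used here. Of the 55487 identifiers, 55227 were matched to GENCODE M21. Groups and batches were taken from the labels. The counts were filtered with filterByExpr (0.696 CPM in at least 5 libraries), scaled by TMM and tested with edgeR 4.0.16 (quasi-likelihood F-test, 4 groups, 20 libraries, Benjamini-Hochberg adjustment over 12799 genes, called below 0.05) in R 4.3.3. The SE of a log2 fold change was taken as its size divided by the square root of the F statistic, an approximation that is weak at low counts. The fit was tested on simulated data. DESeq2 1.42.0, other scalings, filters and sample sets were run as alternatives. The labels name each replicate number as a batch, which pairs the libraries. The deviations of same-numbered libraries from their group means correlated at 0.146 on average over 30 pairs, -0.214 to 0.394, with 19 over 0.1. Between libraries of the same age the correlation was 0.122 to 0.394. Between ages it was -0.214 to 0.275, and negative in every such pair of replicate 1, so the pairing between ages was weaker. Levels per length divide CPM by the annotated exon length. Promoter windows come from RefSeq on GRCm38.p6. All 10 members were named by rule; the members and lists were chosen with earlier results of these data known. Intervals and floors cover counting error only. Results for some neighbouring and pathway genes are not reported here.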

Additional observations from a re-analysis of the deposited data

Results flagged for a closer look

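Libraries that lay far from the other 4 of their group were sought in the 37 combinations of a member and a group that had any spread, and 4 were found, where chance flags about 1 group in 20. Slfn5 was 2.27 CPM (33 counts) in replicate 1 of the young untreated group, and the next highest library had 0.603 CPM. Slfn9 was lowest in the same library, at 32.7 CPM against 36.6 CPM in the next. In replicate 3 of the aged LPS group Slfn9 was 106.8 CPM (1550 counts) against 61.8 CPM in the next highest, and Phf11d was 98.5 CPM (1429 counts) against 58.7 CPM. Both libraries also had the highest summed level of interferon-induced genes in their groups, 220.2 and 3534 CPM; the part of this in the members' levels was not tested.

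The LPS response was called different between aged and young cells by the test of the difference itself in Phf11c, at -1.44 log2 units (adjusted p = 0.0328), and in Phf11d, at -1.0 log2 units (adjusted p = 0.0215). Of all genes tested, 2.27% were called lower in this test. Both calls depended on the libraries included, as described above.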

How the results depend on the processing

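Counts of members called with LPS at either age and between ages with LPS stayed at 9 or 10 under every alternative run, 10 where Slfn1 passed as well. The count for untreated cells, 2, became 1 when only the groups compared were fitted, at an adjusted p below 0.01 and without young untreated replicate 1, and ranged from 1 to 2 with a replicate number left out. The count for the difference of the LPS responses, 2, became 0 at an adjusted p below 0.01 and 1 without young untreated replicate 1, and ranged from 0 to 3 with a replicate number left out; the fit of only the groups compared is the same fit there. Each such omission also leaves fewer libraries. With the replicate block the counts were 9, 9 and 9 with LPS and 2 and 2 for the other comparisons, and no call was changed. Of 727 alternative values of single members, 707 kept their direction and side of the threshold, 17 lost the call, 2 gained it and 1 turned: Phf11d in untreated cells was 0.0836 without replicate 3, and ranged from -0.139 to 0.0836 as libraries were left out. For Slfn1 between ages with LPS, DESeq2 gave no adjusted p. Library sizes alone put the median of all genes at -0.23 with LPS in young and at -0.16 in aged cells, from -0.01 and 0.00, and turned the split of all genes called higher and lower in young cells from 3988 and 4282 to 2407 and 6401, in aged cells from 3523 and 3445 to 2172 and 5476, and between ages with LPS from 1794 and 1923 to 3167 and 1353; the members kept their directions. Depth limited Slfn1, Phf11a, Slfn4 and Slfn5 in untreated cells, where a library held 0 to 10 counts of each apart from the 33 of Slfn5 named above.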
